A study of Mus musculus with 24 samples.

Results

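Slc6a15 and 9 other amino acid transporter genes (Slc7a5, Slc3a2, Slc1a5, Slc38a1, Slc38a2, Slc7a1, Slc7a6, Slc7a11 and Slc43a2) were followed across 24 RNA sequencing libraries of mouse blood stem and progenitor cells. They are 10 of the 27179 genes in the deposited count table and were found there by their Entrez identifiers, that of Slc6a15 being 103098. Slc6a15 was chosen because it was called higher in Phf6-deleted HPC-1 cells in these libraries, so its HPC-1 values are a description and carry no test. The other 9 were chosen by function, as the plasma membrane carriers that supply blood cells with amino acids.

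The libraries came from 8 mice, 4 with Phf6 deleted and 4 controls, each giving 1 library per sorted marrow population. The 3 populations were HSC (haematopoietic stem cells), MPP (progenitors of several blood lineages) and HPC-1 (a more restricted progenitor). The strain label, Phf6lox/Y;Tie2-creTg/+, is the same for every mouse of either group, so it is not known from the labels whether the controls carried the Tie2-cre transgene, whose promoter drives Cre in endothelial and blood-forming cells. Their age is not stated in the labels. Each of 4 litters gave 1 deleted and 1 control mouse, and replicate numbers are litter numbers. SMART-Seq amplification was used for HSC and MPP, and a TruSeq Stranded kit for the HPC-1 libraries. Transporter levels in HPC-1 were therefore not compared with those of HSC or MPP.

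Total counts ran from 9658167 to 27786830 per library. Phf6, the X-linked gene for a chromatin and nucleolar protein mutated in T-cell leukaemia, was at 21.0 to 80.2 CPM (counts per 1000000 of the scaled library size) in the 12 deleted libraries and at 98.9 to 244 CPM in the 12 control libraries, with no overlap. Among the sort markers, Slamf1 (CD150) was at 9.08 to 88.0 CPM in HSC and at most 3.43 CPM in MPP and HPC-1, and Cd48 was at 168 to 224 CPM in HPC-1 and at most 51.9 CPM elsewhere. The HPC-1 kit differs, so its values are set beside the others only as a check of the population labels. By genotype, Slamf1 in HSC was at 9.08 to 52.9 CPM in deleted and 52.7 to 88.0 CPM in control libraries, and was not called (edgeR adjusted p 0.998). In MPP the log2 fold change after deletion was 0.65 ± 0.24 for Ly6a and -0.52 ± 0.22 for Kit (edgeR unadjusted p 0.0179 and 0.0340). For Slamf1 and Cd48 it was -0.58 ± 0.91 and -0.16 ± 0.38. Mllt3 had the lowest p of the stem cell genes there, at 0.62 ± 0.20. None of these was called in MPP (edgeR adjusted p 0.551 to 0.901). Of 6 stem cell genes, edgeR called Hlf (1.15 on the log2 scale) and Procr (0.81) higher and Mllt3 (-0.70) lower in MPP than in HSC of controls, while Fgd5 (0.10) and Mecom (-0.05) were not called and Hoxb5 was not tested. Deleted mouse 3 gave an MPP library unlike the rest, with 9.34% of its counts in its top 10 genes and a mean correlation of 0.886 with the rest of its group, against 0.923 to 0.940 for the others.

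As background, amino acids cross the plasma membrane through carriers of several solute carrier families that differ in substrates and in what drives transport. Slc6a15 encodes a sodium-dependent carrier of branched-chain amino acids and proline that is best known in neurons of the brain. Slc7a5 carries large neutral amino acids, leucine among them, only as a partner of the heavy chain Slc3a2. Leucine taken up this way is sensed by the kinase complex mTORC1, and when amino acids are scarce the transcription factor ATF4 raises many carrier and biosynthesis genes.

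Slc6a15 (mouse chromosome 10, 103367808 to 103419379, plus strand, GRCm38.p6) was higher in deleted than in control libraries in each population by mean, and without overlap in MPP and HPC-1. In HSC its level in litters 1 to 4 was 106, 88.8, 48.3 and 78.9 CPM in deleted mice against 47.2, 35.0, 52.7 and 15.4 CPM in controls. In MPP it was 57.4, 56.5, 109 and 40.0 CPM in deleted mice against 24.4, 19.8, 20.2 and 15.7 CPM in controls. The HSC groups overlapped through litter 3, where the deleted littermate was the lower of the pair, while every deleted MPP library lay above every control. The share of all genes that separate in this way was not counted in any comparison. In MPP, 8.09% of 13806 genes tested had an unadjusted p under 0.05 in edgeR.

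In HSC the log2 fold change of Slc6a15 was 1.10 ± 0.35 (SE), with a 95% interval of 0.33 to 1.86, from a mean of 37.6 ± 16.5 CPM in controls to 80.6 ± 24.4 CPM in deleted mice (SD, n = 4 each). It did not pass edgeR's quasi-likelihood test over all genes, at an adjusted p of 0.998 and an unadjusted p of 0.00881, and it was higher in 3 of 4 litters. In HSC, 1 of 13693 genes tested was called, 0.0073%. In MPP the log2 fold change was 1.71 ± 0.30, with an interval of 1.05 to 2.37, from 20.0 ± 3.55 to 65.8 ± 30.1 CPM, and it was higher in 4 of 4 litters.

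The MPP difference did not pass in edgeR either, at an adjusted p of 0.120, and 4 of 13806 genes, 0.029%, did. DESeq2 called it, with a log2 fold change of 1.73 and an adjusted p of 4.43e-05, among 96 genes in all (0.695%). Without the library of deleted mouse 3, in which Slc6a15 was highest, edgeR also called it, at 1.36 and an adjusted p of 0.0152, among 22 of 14138 genes (0.156%). Over the edgeR fits that left out 1 MPP library each, the adjusted p lay between 0.0152 and 0.484.

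**Figure D1:**
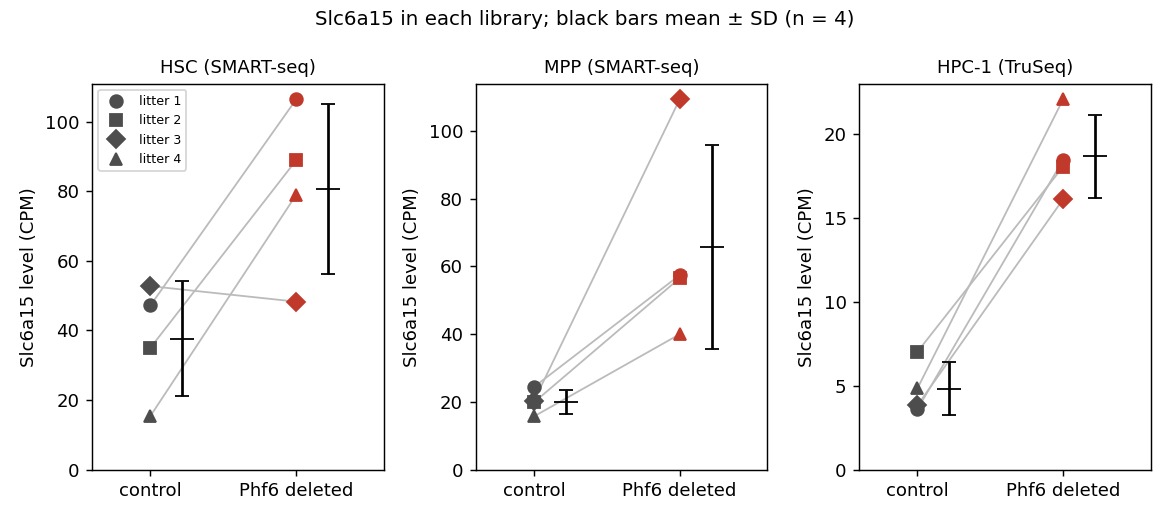
Slc6a15 level in CPM (vertical axis, from 0, with its own range in each panel) in the 24 libraries, by population and genotype. Each point is 1 library, its shape is the litter, grey lines join littermates, and black bars are the mean ± SD of 4 libraries. In MPP and HPC-1 every deleted library is above every control, and in HSC the line of litter 3 falls from 52.7 to 48.3 CPM.

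In HPC-1, the comparison that selected the gene, Slc6a15 was at 18.4, 18.0, 16.1 and 22.0 CPM in deleted mice and at 3.60, 7.01, 3.82 and 4.84 CPM in controls. The means were 18.6 ± 2.48 and 4.82 ± 1.56 CPM, a fitted log2 fold change of 1.95 ± 0.25, and 9 of 13907 genes (0.0647%) were called in this comparison. Every littermate pair differed in the same direction, the deleted mouse being 2.57 to 5.12 times the control.

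The size of the deletion effect on Slc6a15 was set against itself only between HSC and MPP, which share a kit. The effect in MPP exceeded that in HSC by 0.62 ± 0.49 on the log2 scale, with a 95% interval of -0.41 to 1.64 and an edgeR adjusted p of 1.00. No gene of 14561 was called for that difference (0.0%) by edgeR, with 417 at an unadjusted p under 0.05; DESeq2 called 2, neither among the 10, and limma-voom 0. Without deleted mouse 3, whose Slc6a15 level was the lowest of its HSC group and the highest of its MPP group, the difference was 0.08. These edgeR fits took the libraries as independent, although each mouse gave both an HSC and an MPP library. With all libraries, the alternative settings, the mouse block among them, gave differences of 0.43 to 0.62.

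Of the 9 other transporters, none was called in any deletion comparison by edgeR, DESeq2 or limma-voom. The count at an unadjusted p under 0.05 was 1 of 9 in HSC (Slc7a5) and 0 in MPP and in HPC-1, while 3.86%, 8.09% and 4.99% of all genes tested had such a p. Their median log2 fold change was 0.20 (HSC), 0.15 (MPP) and -0.00035 (HPC-1), against 0.0063, 0.019 and -0.0037 over all genes tested. All 10 genes passed the expression filter in every comparison.

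**Figure D2:**
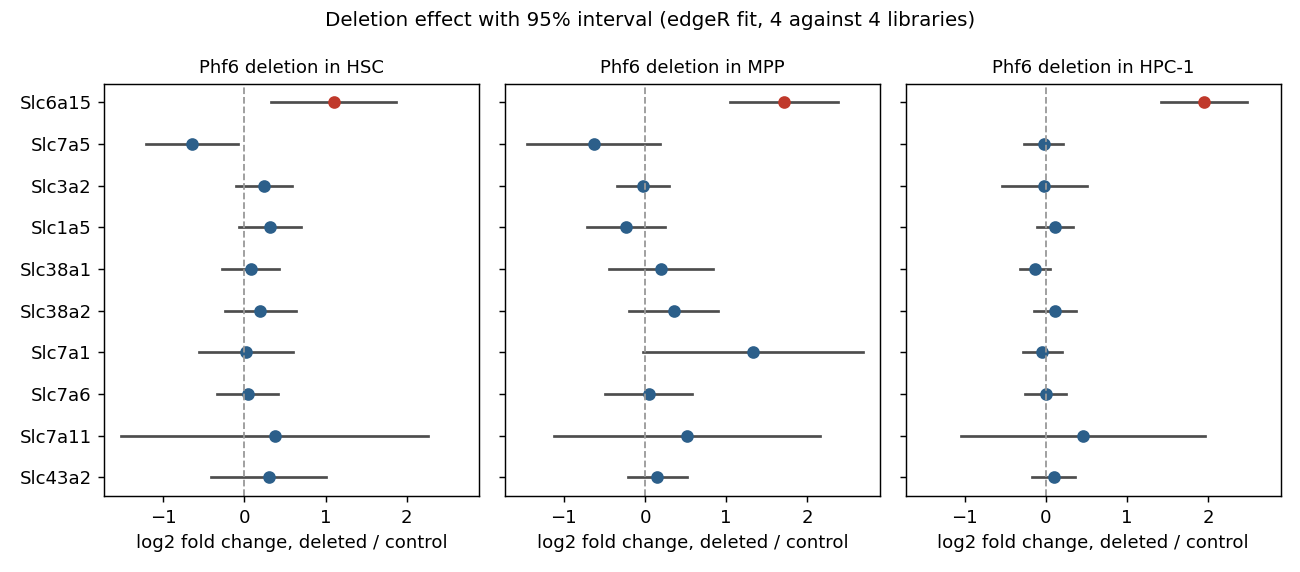
Log2 fold change of deleted over control (horizontal axis) for the 10 transporters in HSC, MPP and HPC-1, with the 95% interval of the edgeR fit on 4 against 4 libraries; Slc6a15 is in red. The interval of Slc6a15 lies above 0 in all 3 panels, that of Slc7a5 lies below 0 in HSC, and those of the other genes include 0. The HPC-1 value of Slc6a15 is the one that chose it.

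Slc7a5, the leucine carrier of the heterodimer, was lower in the deleted littermate in 4 of 4 litters in HSC and in 4 of 4 in MPP. Both populations came from the same mice, so these counts are not independent. The share of all genes with 4 of 4 litters in the same direction was not counted, here or for other genes. Its HSC level in litters 1 to 4 was 37.8, 62.7, 39.3 and 49.2 CPM in deleted mice and 46.1, 94.5, 64.4 and 91.1 CPM in controls. The ranges overlapped although every pair differed in the same direction. The log2 fold change was -0.65 ± 0.26 in HSC, with an unadjusted p of 0.0285 and an edgeR adjusted p of 0.998.

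In MPP the level of Slc7a5 was 40.7, 56.8, 13.7 and 35.1 CPM in deleted mice and 42.5, 63.7, 41.9 and 79.6 CPM in controls. The pairs of litters 1 and 2 were close, and those of litters 3 and 4 far apart. The log2 fold change was -0.63 ± 0.37 (edgeR adjusted p 0.641), and in HPC-1 it was -0.02 ± 0.11, where 2 of 4 litters were higher.

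Slc3a2, the heavy chain that carries Slc7a5, Slc7a6 and Slc7a11 to the cell surface, was called in none of the 3 populations. Its log2 fold change was 0.24 ± 0.16 (HSC), -0.03 ± 0.15 (MPP) and -0.02 ± 0.23 (HPC-1). The wider error in HPC-1 came with litter 4, where Slc3a2 was at 197 CPM in the deleted and 202 CPM in the control mouse, against 116 to 126 CPM in the other 6 libraries.

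Slc7a6, which exchanges cationic for neutral amino acids with the same heavy chain, had log2 fold changes of 0.04 ± 0.17, 0.04 ± 0.24 and -0.00035 ± 0.12 in HSC, MPP and HPC-1. Slc7a11, the light chain of the cystine and glutamate exchanger, was the lowest of the 10 everywhere, with 11 to 134 counts per library in HSC. Its 95% interval in HSC ran from -1.52 to 2.26, so a 2-fold change in either direction lies inside it.

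Among the sodium-coupled carriers, Slc1a5, which exchanges glutamine and other neutral amino acids, had a log2 fold change of 0.31 ± 0.18 (HSC), -0.23 ± 0.22 (MPP) and 0.11 ± 0.10 (HPC-1). Slc38a2, a glutamine and alanine carrier that rises when amino acids are scarce, was higher in the deleted littermate in 3 of 4 litters in each population, at 0.20 ± 0.20, 0.35 ± 0.25 and 0.11 ± 0.12. Slc38a1, a related carrier, was lower in the deleted littermate in 4 of 4 litters in HPC-1, by 0.14 ± 0.09 on the log2 scale (edgeR adjusted p 0.999). None of these passed the test.

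Slc7a1, the carrier of arginine and lysine, rested on 1 library in MPP. It was at 18.9, 18.2, 121 and 15.1 CPM in deleted mice and at 14.2, 18.7, 14.7 and 21.2 CPM in controls. The high library was again that of deleted mouse 3, and the log2 fold change of 1.33 ± 0.62 (edgeR adjusted p 0.617) was 0.025 without it. In HSC and HPC-1 the log2 fold change was 0.02 ± 0.27 and -0.04 ± 0.11.

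In the same MPP library of deleted mouse 3, Slc38a1 was at 322 CPM and Slc38a2 at 511 CPM, each the highest of its group. Slc7a5 was at 13.7 CPM and Slc1a5 at 187 CPM there, each the lowest. That library's part in the MPP results of these genes is shown by leaving it out: Slc38a1 went from 0.20 to -0.21 and Slc7a5 from -0.63 to -0.36 on the log2 scale.

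**Figure D3:**
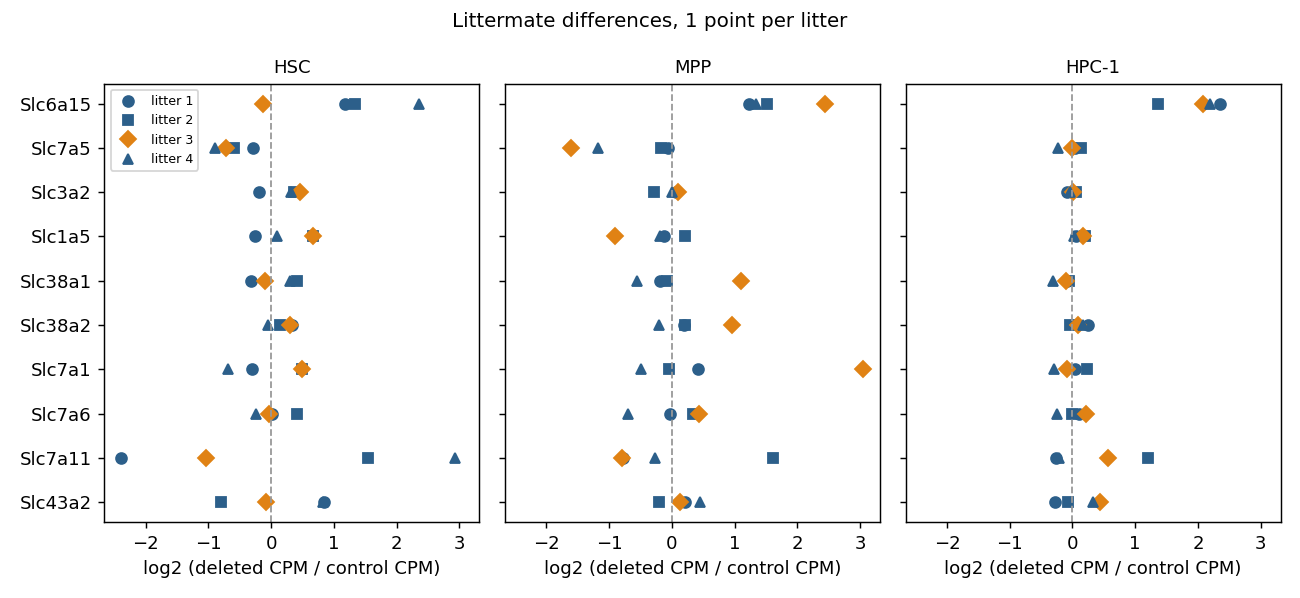
Log2 ratio of deleted to control CPM (horizontal axis) within each litter for the 10 transporters; each point is 1 litter, and litter 3 is in orange. In MPP the orange points lie farthest out for Slc6a15, Slc7a5, Slc1a5, Slc38a1, Slc38a2 and Slc7a1, and in HPC-1 all 4 points of Slc6a15 lie to the right of every other gene's.

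Slc43a2, which lets large neutral amino acids pass down their gradient without sodium, had log2 fold changes of 0.30 ± 0.32, 0.15 ± 0.17 and 0.10 ± 0.12 after deletion in HSC, MPP and HPC-1. Its exons overlap those of an antisense gene, Gm45606, in the GENCODE annotation. HSC and MPP libraries do not mark the strand, so reads of the pair cannot be told apart there.

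Between MPP and HSC of control mice, edgeR called Slc43a2 alone among the 10, and DESeq2 and the mouse block called Slc6a15 as well. In control mice it was at 32.8, 34.0, 28.1 and 21.7 CPM in HSC and at 59.3, 68.4, 57.1 and 55.7 CPM in MPP. The groups did not overlap, and MPP was higher in 4 of 4 mice. The log2 fold change of MPP over HSC was 1.07 ± 0.17 with an edgeR adjusted p of 0.00151, in a comparison where 8.84% of 13636 genes were called, and the call held in 8 of 8 fits that left out 1 library.

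In deleted mice Slc43a2 was at 58.8, 19.4, 26.7 and 38.5 CPM in HSC and at 68.9, 59.6, 62.8 and 76.0 CPM in MPP. MPP was again higher in 4 of 4 mice and the ranges did not overlap, though the HSC library of mouse 1 came close. The log2 fold change was 0.92 ± 0.32 with an adjusted p of 0.198 in edgeR, where 1.41% of 13887 genes were called.

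Slc6a15 was lower in MPP than in HSC in 3 of 4 control mice and in 3 of 4 deleted mice. In controls the log2 fold change was -0.88 ± 0.31 with an edgeR adjusted p of 0.104. With the mouse as a block, since HSC and MPP of a number come from the same animal, edgeR gave -0.77 with an adjusted p of 0.0445, which passes, in a fit that called 15.5% of all genes. DESeq2, which called 12.4% of all genes, gave -0.87 and an adjusted p of 0.0423. EdgeR without the HSC library of control mouse 4, where Slc6a15 was lowest, gave -1.13 and an adjusted p of 0.00583 and called 7.03% of all genes.

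In deleted mice the same difference was -0.27 ± 0.33 (edgeR adjusted p 0.759), and mouse 3 alone was higher in MPP, at 109 against 48.3 CPM. None of the 10 transporters was called there by edgeR, DESeq2 or limma-voom, with 1 at an unadjusted p under 0.05 (Slc43a2). Of the others in controls, Slc7a1 was lower in MPP in 4 of 4 mice, at -0.57 ± 0.21 (adjusted p 0.130 in edgeR), and Slc7a5 in 4 of 4, at -0.35 ± 0.25 (adjusted p 0.474).

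**Figure D4:**
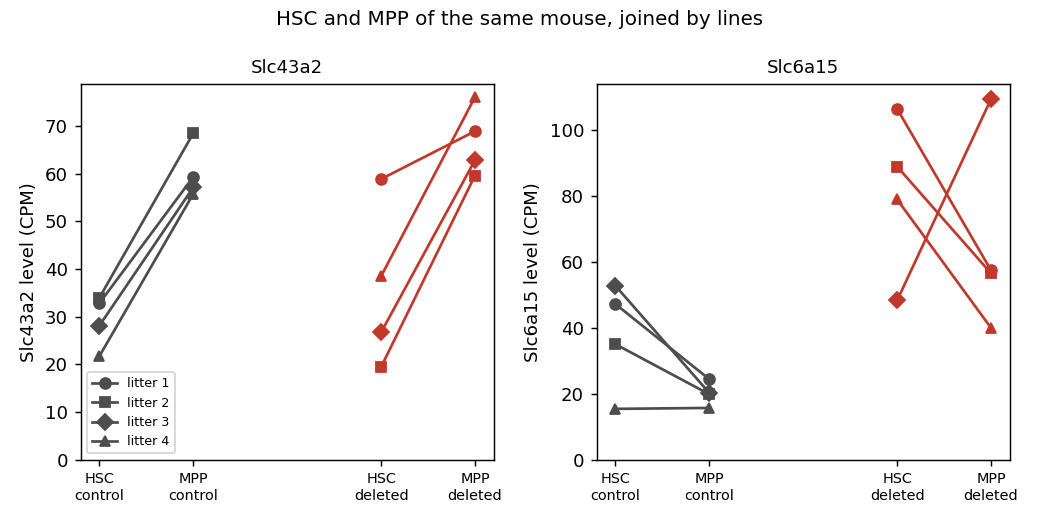
Slc43a2 and Slc6a15 levels in CPM (vertical axes, from 0) in HSC and MPP of the same mouse, joined by a line, for 4 control and 4 deleted mice. All 8 lines of Slc43a2 rise from HSC to MPP, while those of Slc6a15 fall in 3 of 4 control and 3 of 4 deleted mice.

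Levels of different genes were compared only per length, as CPM per kilobase of the deposited gene length. In control HSC the order ran from Slc1a5 (108), Slc38a2 (57.6) and Slc3a2 (50.8) through Slc7a6 (22.7), Slc7a5 (21.1) and Slc38a1 (18.0) to Slc6a15 (10.3), Slc43a2 (4.03), Slc7a1 (3.62) and Slc7a11 (0.326). The ranges of Slc38a2 and Slc3a2 overlapped, as did those of Slc7a6 with Slc7a5, Slc7a5 with Slc38a1, Slc6a15 with Slc43a2, and Slc43a2 with Slc7a1. In deleted HSC, Slc6a15 was at 22.1 CPM per kilobase, between Slc7a6 (23.3) and Slc38a1 (19.0), and overlapped both.

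In MPP, Slc6a15 was at 5.50 CPM per kilobase in controls, below Slc43a2 (8.32) and above Slc7a1 (2.40) with no overlap on either side. In deleted MPP it was at 18.1, between Slc7a6 (20.9) and Slc7a5 (10.4), and overlapped both. In HPC-1 it was ninth of the 10 in either genotype, at 1.32 in controls and 5.12 in deleted mice, with Slc43a2 above it and Slc7a11 (0.0887 and 0.122) below, and no overlap with either.

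**Figure D5:**
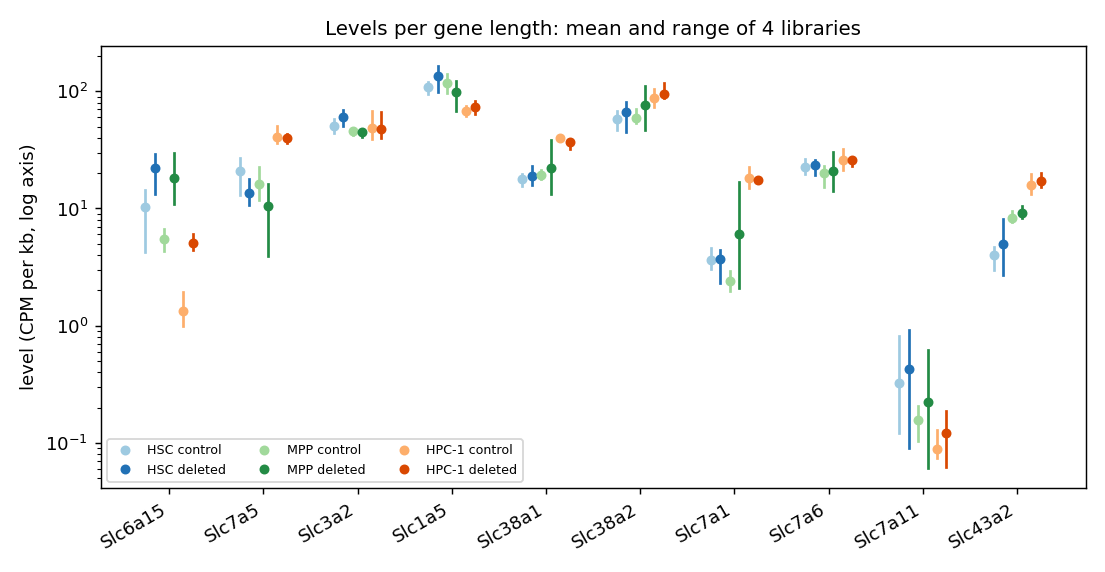
Level of each transporter in CPM per kilobase of gene length (vertical axis, log scale) in the 6 groups; points are means and lines the range of 4 libraries. Slc6a15 shifts up between the genotypes in each population, Slc7a11 is lowest throughout, and HPC-1 values come from another kit.

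The wider gene groups were not called after deletion. Of 43 other amino acid transporters, 20, 19 and 18 passed the filter in HSC, MPP and HPC-1, and none was called by edgeR, DESeq2 or limma-voom (0, 2 and 1 at an unadjusted p under 0.05). The same was found for 9 other carriers of the SLC6 family (2, 1 and 2 tested), 30 ATF4 and amino acid response genes (26, 27 and 27), 37 genes of amino acid sensing by mTORC1 (36, 37 and 36) and 21 enzymes of branched-chain amino acid and proline metabolism (21 in each). Their counts at an unadjusted p under 0.05 in HSC, MPP and HPC-1 were 0, 0 and 0, then 1, 0 and 1, then 1, 1 and 2, and 1, 0 and 0. Over all genes tested, 3.86%, 8.09% and 4.99% had such a p. EdgeR called 0.0073%, 0.029% and 0.0647% of all genes, and DESeq2 0.102%, 0.695% and 0.489%. With so few calls anywhere, a list of this size with none says little about its genes.

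Slc38a9, the lysosomal carrier that reports arginine to mTORC1, had the lowest p of the other transporters in HSC and HPC-1, and the next to lowest in MPP. Its log2 fold change was 0.45 ± 0.21 (HSC), 0.65 ± 0.28 (MPP) and 0.36 ± 0.14 (HPC-1), with edgeR adjusted p of 0.998, 0.616 and 0.830. The MPP value includes 170 CPM in deleted mouse 3, against 75.7 to 85.2 CPM in the other deleted mice. Among ATF4 genes, Vldlr, a lipoprotein receptor, had the lowest p in HSC, at 1.32 ± 0.38 (adjusted p 0.998).

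The median log2 fold change of the ATF4 genes tested was -0.03 (HSC), -0.17 (MPP) and -0.01 (HPC-1), against 0.0063, 0.019 and -0.0037 over all genes. For mTORC1 sensing genes it was -0.03, -0.0060 and 0.03. For the enzymes of branched-chain amino acids and proline, the substrates of Slc6a15, it was 0.10, -0.05 and -0.02.

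Between MPP and HSC of control mice, more of these genes were called, in a comparison where edgeR called 8.84% of 13636 genes. Of the other transporters 20 were tested, with 1 called higher and 2 lower in MPP. Slc43a1, the close relative of Slc43a2, was lower in MPP (52.1 ± 11.2 against 82.9 ± 14.95 CPM, log2 fold change -0.67 ± 0.18, edgeR adjusted p 0.0338), so the related carriers differed in opposite directions. Of the other transporters Slc38a11 was called higher in MPP (2.39 ± 1.14 against 0.0935 ± 0.108 CPM) and Slc1a1 lower (0.118 ± 0.235 against 2.40 ± 0.668 CPM), both at very low levels. In the SLC6 family the only gene tested, Slc6a13, a carrier of GABA and taurine, was called lower by edgeR, at -0.76 ± 0.22 (adjusted p 0.0452), and not by limma-voom.

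Of the 26 ATF4 genes tested in that comparison, edgeR called 2 higher and 3 lower in MPP, where 8.84% of all genes were called. DESeq2 and the mouse block, which called 12.4% and 15.5% of all genes, each called 6, adding Aars. The biosynthesis genes Psat1 (serine) and Mthfd2 (folate cycle) fell by 0.86 and 1.40 on the log2 scale, and the stress gene Nupr1 by 3.12. Vldlr rose by 1.99, as did Sesn2, a leucine sensor, by 0.96. Prodh, the mitochondrial enzyme that starts proline breakdown, was the only one of 21 metabolic enzymes that edgeR called, at -0.65 ± 0.17 (adjusted p 0.0266), and the mouse block called Bcat2 as well. Also called was Sesn1 (0.81 ± 0.14), with Sesn2, among 36 mTORC1 sensing genes. By edgeR, neither that list nor the enzymes held a larger share of called genes than the 8.84% over all genes.

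In deleted mice, MPP against HSC gave Slc43a1 (-1.11 ± 0.21) and Slc1a4, a carrier of alanine, serine and cysteine (-2.68 ± 0.57, from 10.1 ± 3.72 to 1.57 ± 0.790 CPM), both lower in MPP. Nupr1 and Psat1 were lower as well, at -2.97 ± 0.41 and -1.10 ± 0.24. No gene of the other lists was called by edgeR. At an unadjusted p under 0.05 were 0 of the SLC6 family, 1 of the mTORC1 genes and 5 of the metabolic enzymes, against 14.4% of all genes. DESeq2 called 1 of the enzymes, Prodh, and 6.07% of all genes, while edgeR called 1.41% of all genes.

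Across 12842 genes, with log2 CPM centred on each population over 24 libraries, Pearson's r with Slc6a15 was 0.859 for Glrp1, 0.853 for Iigp1, an interferon-induced GTPase, 0.837 for Rsad2, an interferon-induced antiviral enzyme, 0.828 for H2-T22, a non-classical class I molecule, and 0.815 for Insl6, a relaxin-family peptide. The points share the genotype contrast and the same mice, and Phf6 itself had an r of -0.856. After centring on genotype as well, r was 0.631, 0.293, 0.387, 0.443 and 0.611 for the same 5 genes and -0.133 for Phf6. On that scale Slc38a2 (0.586) and Slc38a1 (0.514) lay above Iigp1, Rsad2 and H2-T22. That scale was not recomputed without the MPP library of deleted mouse 3. Centred on population alone, r of Slc38a1 was 0.215 with that library and -0.163 without it.

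Among the transporters, r with Slc6a15 centred on population alone was highest for Slc38a2 (0.538) and lowest for Slc7a5 (-0.544), and without the MPP library of deleted mouse 3 these were 0.420 and -0.413. Centred on genotype as well, Slc1a5 was lowest (-0.576), below Slc7a5 (-0.479), a scale not recomputed without that library. Centred on population alone, r of Slc1a5 was -0.185 with it and 0.045 without it. The pair Slc38a1 and Slc7a1 had an r of 0.778 over 24 libraries and 0.213 over 23.

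The genes around Slc6a15 that the table holds were nearly silent. Of 9 genes in the table that start within 1 Mb of it, Rassf9 had 177 counts over 24 libraries, Lrriq1 23 and each of the rest 7 or fewer. Other annotated genes of that window are absent from the table and were not measured, the protein-coding Gm34298, Gm6763 and Gm8764 among them. In the deletion comparisons Rassf9 alone passed the filter, in MPP only, and with a log2 fold change of 0.64 it was not called by edgeR, DESeq2 or limma-voom (0 genes at an unadjusted p under 0.05). Over the 4 libraries of a group it had 3 counts in control and 41 in deleted HPC-1, too few for the filter. In MPP it had 46 counts in control and 86 in deleted libraries, 52 of the latter in 1 library. RefSeq places a long noncoding RNA, 6430590A10Rik (chromosome 10, 103367189 to 103369255), across the start of Slc6a15. It was not analysed here, and in HSC and MPP libraries reads of overlapping genes cannot be told apart.

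Markers of other cells were read beside these results, since fewer cells of a type and less RNA per cell cannot be told apart in bulk libraries. Of 7 neural markers, Snap25, Syt1, Rbfox3 and Gad1 were at 0 in every group except that Snap25 was present in control MPP, and the summed level was at most 6.60 CPM in any library. The 13 mature neutrophil and monocyte markers, none at 0 in a whole group, summed to 1380 to 10861 CPM in deleted and 624 to 7689 CPM in control HSC, to 1386 to 13614 against 213 to 2803 CPM in MPP, and to 399 to 2989 against 420 to 1451 CPM in HPC-1. In MPP the highest sum was in deleted mouse 4, whose Slc6a15 level was the lowest of its group, and the lowest was in control mouse 3.

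The 8 basophil and mast cell markers summed to 18.1 to 143 CPM in deleted and 21.0 to 42.1 CPM in control HSC, where Cma1 and Tpsb2 were at 0 in both. In MPP the sums were 6.14 to 92.6 and 14.0 to 40.6 CPM, and in HPC-1 62.6 to 162 and 75.1 to 147 CPM. Single markers differed more than the sums. In HSC the mean was 22.6 CPM in deleted and 2.05 CPM in control mice for Mcpt8, and 46.1 and 3.77 CPM for Prss34. Fcer1a went the other way, at 3.47 and 10.2 CPM. In HPC-1 Gzmb was at 5.49 and 1.28 CPM and Cma1 at 2.46 and 0.0802 CPM, while Mcpt8 was at 18.4 and 18.2 CPM. None was called by edgeR (lowest adjusted p 0.105, Gzmb). HSC of deleted mouse 3, with the lowest Slc6a15 of its group, had the highest basophil and mast cell sum and the lowest Slamf1, 9.08 CPM. The 8 endothelial and stromal markers summed to 699 CPM in HSC of control mouse 1, where Slc7a11 was highest of its group, and to 36.2 to 82.8 CPM in the other HSC libraries; Cdh5 and Lepr were at 0 in both HSC groups. The part of these markers in the results was not tested.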

How the data were processed

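Poly(A) RNA of 24 libraries from 8 mice was sequenced as 80 bp pairs, per the labels. The authors deposited a raw count per gene and library. The submitters' processing notes name bcl2fastq, featureCounts and the mm10 build, while the aligner, gene annotation, tool versions and counting strand were not given in the sources used here. The table matched the 24 sample files. Gene coordinates are from RefSeq (GRCm38.p6) and exon overlaps from GENCODE.

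Comparisons used edgeR 4.0.16 in R 4.3.3 on these counts: TMM scaling, the default filter (count 10, total 15), the robust quasi-likelihood test (2-sided) and Benjamini-Hochberg adjustment over all genes at 0.05. The standard error is the log2 fold change divided by the square root of F. There were 6 comparisons: deletion in each population, MPP against HSC in each genotype, and the difference of the deletion effect between MPP and HSC. CPM use the scaled library size of the population. Alternatives were RLE size factors, DESeq2 1.42.0, limma-voom 3.58.1, no filter, a litter or mouse block and leaving out each library. Scripts were tested on simulated counts.

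Numbers pair libraries by the labels, which give a shared litter and, across populations, the same mouse. The correlation of deviations within a litter was lowest at 0.00311 and highest at 0.0631 for HSC. For MPP it lay between 0.0316 and 0.176, and for HPC-1 between 0.0388 and 0.401. Between a deleted and a control mouse of different litters it reached 0.0737 (HSC), 0.139 (MPP) and 0.0886 (HPC-1). In HSC that lies above every value within a litter, and in MPP and HPC-1 above the lowest. The pairing by litter therefore rests on the labels. Between HSC and MPP of a mouse the correlation lay between 0.180 and 0.374 (control) or 0.0150 and 0.414 (deleted). Between HSC and MPP of different mice it reached at most 0.0131 (control) or 0.124 (deleted). No 2 libraries of a group agreed within sampling noise (chi-square per degree of freedom 16.8 to 249).

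Members and lists were chosen with earlier results of these data known. Named genes are the 10 members, Phf6, up to 4 called genes of each wider list by adjusted p (up to 2 by unadjusted p where none was called), and the 5 genes with the highest r with Slc6a15 that have no provisional symbol. Genes named only for litter 4 of HPC-1 were chosen after their values were seen.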

Additional observations from a re-analysis of the deposited data

Results flagged for a closer look

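In groups of 4 libraries, 8 of 60 tests of a member in a group found the highest or lowest library farther from the rest than Dixon's 95% critical value allows; chance flags about 1 in 20. In HPC-1, 4 of these were libraries of litter 4: Slc3a2 at 197 CPM in the deleted and 202 CPM in the control mouse, Slc38a2 at 546 CPM in the deleted mouse and Slc7a5 at 179 CPM in the control mouse. In MPP, Slc7a1 was at 121 CPM in deleted mouse 3. Slc7a11, with few counts, stood out at 5.77 CPM in MPP of deleted mouse 2, at 7.56 CPM in HSC of control mouse 1 (the library with 699 CPM of endothelial and stromal markers) and at 1.18 CPM in HPC-1 of control mouse 3.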

How the results depend on the processing

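Of 663 values recomputed for 51 effects of the members, 614 kept their direction and side of the threshold, 42 turned direction, 5 came to pass and 2 no longer passed. No effect that passed turned direction. Slc6a15 in MPP passed with DESeq2 (1.73, so 1 member was called) and without deleted mouse 3; leaving out 1 library gave 1.36 to 1.88 and 0 to 1 members called. In HPC-1 leaving out 1 library gave 1.83 to 2.19 and 0 to 1 called. The call ended without deleted mouse 1 or control mouse 4. Since that call chose Slc6a15, these fits describe how it depends on single libraries and are no test of it. In MPP against HSC of controls DESeq2 and the mouse block each called 2 members, and leaving out 1 library 1 to 2. The replicate block changed no other member's call. 

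Effects that turned direction had a log2 fold change of at most 0.73 in size. In HSC, leaving out 1 library gave Slc38a1 -0.020 to 0.17, Slc7a1 -0.073 to 0.18, Slc7a6 -0.025 to 0.13, Slc7a11 -0.35 to 1.38 and Slc43a2 -0.033 to 0.51. In MPP it gave Slc3a2 -0.059 to 0.016, Slc38a1 -0.21 to 0.36, Slc7a6 -0.19 to 0.19 and Slc7a11 -0.79 to 0.83. In HPC-1 it gave Slc7a5 -0.080 to 0.10, Slc3a2 -0.22 to 0.20, Slc38a2 -0.0021 to 0.21, Slc7a1 -0.13 to 0.079 and Slc7a6 -0.078 to 0.12. In MPP against HSC it gave Slc38a2 -0.012 to 0.18 in controls, and Slc38a1 -0.17 to 0.41, Slc7a1 -0.57 to 1.02 and Slc7a6 -0.36 to 0.015 in deleted mice. Outside the tally, the difference of the deletion effect also turned when 1 mouse was left out. It gave Slc7a5 -0.13 to 0.20, Slc38a1 -0.32 to 0.29, Slc38a2 -0.094 to 0.33, Slc7a6 -0.17 to 0.092, Slc7a11 -1.05 to 1.10 and Slc43a2 -0.30 to 0.18. Slc3a2, Slc1a5 and Slc7a1 kept their direction there.

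Limma-voom gave Slc7a6 -0.019 and Slc7a11 -0.13 for deletion in MPP, and Slc7a1 -0.016 for MPP against HSC in deleted mice; the block gave Slc7a11 -0.043 in MPP. In HPC-1 Slc7a6 was 0.0049 with RLE factors, 0.0047 with DESeq2, 0.0041 with limma-voom, 0.0044 without a filter and 0.012 with the block. Without MPP of deleted mouse 3, added after seeing the data, r with Slc6a15 was 0.045 for Slc1a5, -0.16 for Slc38a1, -0.080 for Slc7a1 and -0.011 for Slc7a6. The cause was not tested.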

Other observations

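In HPC-1, litter 4 stood apart in part of the amino acid response genes in either genotype. The genes named here were chosen after their values were seen. Atf3, a stress-induced transcription factor, was at 208 CPM in the deleted and 249 CPM in the control mouse of litter 4, and at most 2.47 CPM in the other 6 libraries. Ppp1r15a, which restores translation after stress, was at 265 and 248 CPM against 25.5 to 89.5 CPM, and Cebpb at 75.2 and 72.9 CPM against 20.5 to 30.5 CPM. Atf4 itself was at 257 and 242 CPM against 111 to 161 CPM.

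Of the 30 ATF4 and amino acid response genes, 14 were higher in both litter 4 libraries than in each of the other 6 (46.7%), against 1478 of 13907 genes tested (10.6%). Of the 10 transporters, 3 were (Slc3a2, Slc38a2 and Slc7a5), the same genes already flagged for litter 4 above, so this count is not a separate result. Slc6a15 was not, at 22.0 CPM in the deleted and 4.84 CPM in the control mouse of that litter. Asns, the asparagine synthetase gene that ATF4 raises, was at 11.5 and 15.6 CPM against 6.35 to 13.1 CPM. Trib3 (3.65 and 1.75 CPM against 1.01 to 4.65 CPM) and Psat1 (168 and 179 CPM against 133 to 190 CPM) did not stand apart.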
